A study of Mus musculus with 8 samples.

Results

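The 48 cytoplasmic ribosomal protein genes described here encode parts of the ribosome that translates nuclear-encoded messages. They were found on the array by symbol: probe sets (groups of oligonucleotide probes that report 1 transcript) were taken where their only gene symbol was Rpsa, began with Rpl or Rps followed by a digit, or was a stalk protein symbol from Rplp0 to Rplp2. Symbols of the S6 kinases, Rps19bp, Rpl7l and pseudogenes were left out. This gave 102 of 45101 probe sets, for 23 small subunit genes, 23 large subunit genes and 2 genes of the acidic stalk, Rplp0 and Rplp2. Of the 18194 genes that had a probe set of their own, 14267 passed a filter on low signal, and 47 of the 48 ribosomal protein genes were among them.

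RNA was taken from mouse embryonic stem cells of the strain background 129X1 x 129S1 and hybridised to 8 Affymetrix arrays. Cells carrying a short hairpin against Top1, a DNA topoisomerase, or against p53, the tumour suppressor, were combined with mock cells at 1 part to 4 parts. The groups were shTop1 coculture, shTop1 mix, shp53 coculture and shp53 mix, with 2 arrays each. In a coculture the knockdown and mock cells shared a dish for 4 days. In a mix, which the labels call the control, each kind was kept in its own dish for the same 4 days and the RNAs were pooled at the same ratio afterwards, so that a coculture minus mix difference asks what living together changed. All 8 samples held mock RNA, and the share of knockdown cells left in a coculture at day 4 was not measured. The labels call the arrays of a group biological replicates without naming separate thaws or passages, so p-values measure only the spread between these samples.

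A ribosome joins a small subunit, which reads the message, and a large subunit, which makes the peptide bonds, and each protein is needed in about the same amount as the others. In mammals, most ribosomal protein messages start with a run of pyrimidines, the 5′ terminal oligopyrimidine (TOP) tract, through which mTOR signalling sets how well they are translated. Several of these proteins also act outside the ribosome: Rpl11 binds Mdm2, the ubiquitin ligase of p53. In Drosophila, cells that carry 1 mutant copy of a ribosomal protein gene are eliminated when wild-type cells grow beside them, which is a classic case of cell competition.

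RefSeq promoter windows (build GRCm38.p6, 250 bases before to 50 after each annotated start) were matched by symbol to 42 of the 48 genes. A TOP start, taken here as C at the annotated first base followed by at least 4 pyrimidines, was present in 8 of these 42 genes (19.0%) and in 813 of 27025 genes with a window (3.01%). The 8 were Rpl35, with a pyrimidine run of 11 bases, Rps10 (10), Rps18 (9), Rps6 (9), Rpl38 (8), Rps27 (7), Rpl14 (6) and Rplp2 (5). The letters CCGGAAG, a core bound by ETS-family factors, stood on either strand in 21 of the 42 genes and in 2683 of the 27025 (9.93%). These are matches of letters at annotated starts, and a start annotated a few bases off would hide a tract.

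4 starts are printed to show the tract, from 60 bases before to 20 bases after the annotated first base, on the gene's strand. They are those of Rps27, whose probe set had the largest coculture difference of all 47 genes, Rps18, with the lowest probe set, Rps6, the substrate of the S6 kinases, and Rpl38, a gene with flat signals. Capitals mark the pyrimidine run at the start and, in Rpl38, CCGGAAG upstream of it. The windows are chr3:90213629-90213708 on the minus strand (Rps27), chr4:86857348-86857427 on the minus strand (Rps6), chr17:33955646-33955725 on the minus strand (Rps18) and chr11:114668520-114668599 on the plus strand (Rpl38).
Rps27: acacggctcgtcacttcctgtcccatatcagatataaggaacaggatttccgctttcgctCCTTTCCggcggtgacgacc
Rps6: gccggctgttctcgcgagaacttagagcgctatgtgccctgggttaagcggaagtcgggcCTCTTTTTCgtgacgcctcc
Rps18: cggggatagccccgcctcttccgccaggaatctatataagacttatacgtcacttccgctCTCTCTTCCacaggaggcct
Rpl38: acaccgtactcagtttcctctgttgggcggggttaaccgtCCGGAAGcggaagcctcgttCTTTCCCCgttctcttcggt

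Signals are linear array intensities after quantile normalization, and differences are on the log2(signal + 16) scale, which understates the change of dim genes. The mean signal was 812 to 896 per array before normalization. Summed signals of 10 embryonic stem cell markers, all 10 of which passed the filter, were 121907 to 123026 in the shTop1 cocultures, 119165 to 121340 in the shTop1 mixes, 115255 to 118668 in the shp53 cocultures and 118961 to 121219 in the shp53 mixes. Of 10 fibroblast markers 5 passed, and their sums were 803 to 880 in the shTop1 cocultures, 699 to 795 in the shTop1 mixes, 805 to 975 in the shp53 cocultures and 836 to 859 in the shp53 mixes. Their part in the results was not tested. Sums are led by the brightest markers, and single markers went both ways. Coculture minus mix over both knockdowns ran from -0.29 (Sox2) to 0.20 (Nanog) for the 10 stem cell markers, with 6 above 0. For the 5 fibroblast markers it ran from -0.32 (Acta2) to 0.39 (Col1a2), with 4 above 0. Top1 itself had signals of 5281 and 5283 in the shTop1 cocultures, 5110 and 5316 in the shTop1 mixes, 5572 and 5886 in the shp53 cocultures and 5456 and 5682 in the shp53 mixes. All 4 shTop1 arrays lay below all 4 shp53 arrays, with a log2 difference of -0.11.

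Ribosomal protein signals were among the brightest on the array. The mean over the 8 arrays reached 20000 for 62 of the 102 probe sets, of only 291 such probe sets in all, and 35 of the 47 tested genes were represented by one of them. At the other end, 21 probe sets had a mean under 1000, down to 4.82, and 4 lay below the filter, a signal of 22.1. These 4 were single probe sets of Rpl27a, Rps4x, Rps3 and Rps16. Rps16, a small subunit protein, was the only gene left untested, with signals between 0.517 and 21.5 from its own probe set, while a bright probe set annotated to Rps16, a pseudogene and another locus ran between 31688 and 35245. Signals of different probe sets depend on their probes, so levels are compared here only within a probe set.

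After quantile normalization, which gives every array the same set of values, signals of the genes varied little between arrays. As deposited, the median of the ribosomal protein probe sets with a mean of at least 20000 ran from 27819 to 38080. The narrow ranges that follow therefore hold for normalized signals only. Coculture minus mix, averaged over both knockdowns, had a median log2 difference of -0.0022 over the 47 genes, with 22 above and 25 below 0, beside a median of 0.0224 over all 14267 genes. The middle 50% of the 47 lay between -0.04 and 0.03, against -0.10 and 0.14 for all genes. In all, 45 of the 47 genes (95.7%) lay within 0.2 of 0, against 70.2% of all genes. The median SD within a group was 0.067 for the ribosomal protein genes and 0.165 for all genes. It was 0.067 also for the 74 other genes whose mean signal reached 20000, all of which lay within 0.2 of 0. The 35 ribosomal protein genes at that signal also all lay within 0.2 of 0, with a median SD of 0.0555. Their middle 50% lay between -0.03 and 0.03, against -0.06 and 0.05 for the 74 others. A narrow range was thus shared with other bright genes, though theirs was wider.

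**Figure D1:**
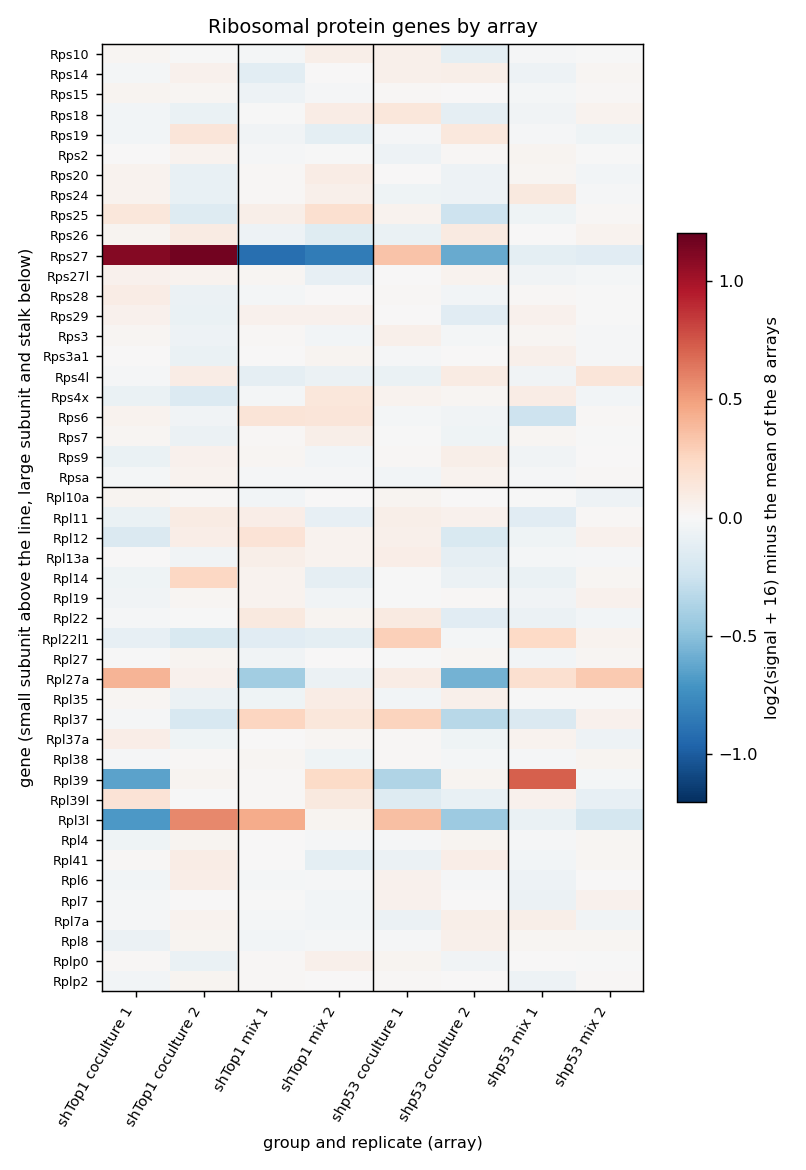
Each row is 1 of the 47 tested ribosomal protein genes and each column 1 array; colour gives log2(signal + 16) minus the gene's mean over the 8 arrays. Most rows are near white across all groups, while Rps27 is high in both shTop1 cocultures, and Rpl39, Rpl27a and the dim Rpl3l vary between arrays of the same group.

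By limma's test with Benjamini-Hochberg adjustment over 14267 genes, 0 ribosomal protein genes passed an adjusted p of 0.05 in any of the 6 comparisons, and neither did any other gene (percent called 0). At an unadjusted p under 0.05, 1 of the 47 genes (Rps27) was higher and 0 were lower in the cocultures over both knockdowns. Of all genes 11.7% had such a p there (7.09% higher and 4.63% lower). The count was 1 with Top1 knockdown (8.2% of all genes), 0 with p53 knockdown (6.86%) and 2 for the difference between those effects (4.3%). Between the knockdowns it was 1 in the mixes (4.04%) and 1 in the cocultures (4.78%). Rps27 was in each count above 0, joined by Rpl27a in the difference. With a variance trend and robust estimation in limma, 31 genes (0.217%) passed in the comparison over both knockdowns and 3 (0.021%) with Top1 knockdown, and 1 (0.00701%) with p53 knockdown. Rps27 was the only ribosomal protein gene among them, called in the first pair of comparisons. All 4 cocultures lay above all 4 mixes for 0 of the 47 genes (5.75% of all genes) and below them for 0 (3.35%).

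The subunits had close medians. Over both knockdowns the 22 tested small subunit genes had a median log2 difference of -0.0016 (10 above and 12 below 0), and the 25 large subunit and stalk genes had one of -0.0046 (12 above and 13 below 0). The medians of all 47 were -0.0017 with Top1 knockdown, beside 0.0303 for all genes, and 0.0009 with p53 knockdown, beside 0.0145. Between the knockdowns, shTop1 minus shp53, the 47 genes had a median of -0.0017 in the mixes (all genes -0.0086) and 0.0053 in the cocultures (all genes 0.0034).

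These medians rest on quantile normalization, which gives every array the same distribution of signals. In the intensities as deposited, the median signal of the 62 bright probe sets was 38080 in shTop1 coculture replicate 1 and 27819 to 33557 on the other 7 arrays, against 30178 to 31400 on all 8 arrays after quantile normalization. With each array centred on its median instead, the coculture minus mix median of the 47 genes became 0.16 over both knockdowns (42 of 47 above 0, all genes 0.07) and 0.30 with Top1 knockdown (41 of 47, all genes 0.08). With the deposited scaling alone it was 0.11 over both knockdowns (39 of 47 above 0, all genes 0.01) and 0.24 with Top1 knockdown (41 of 47, all genes 0.02). No ribosomal protein gene passed the adjusted threshold in limma under these scalings either, although at an unadjusted p under 0.05 there were 12 of 47 with Top1 knockdown after median centring, where 7.42% of all genes had such a p. Without shTop1 coculture replicate 1, the Top1 knockdown medians were 0.19 after median centring (all genes 0.13) and 0.10 on the deposited scale (all genes 0.04), and the medians over both knockdowns were 0.11 after median centring (42 of 47 above 0, all genes 0.09) and 0.04 on the deposited scale (30 of 47, all genes 0.02). Whether the ribosomal protein messages as a group differed between cocultures and mixes therefore depends on the scaling and, in part, on this array. In RNA from whole dishes, fewer cells with a message and less of it per cell cannot be told apart.

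**Figure D2:**
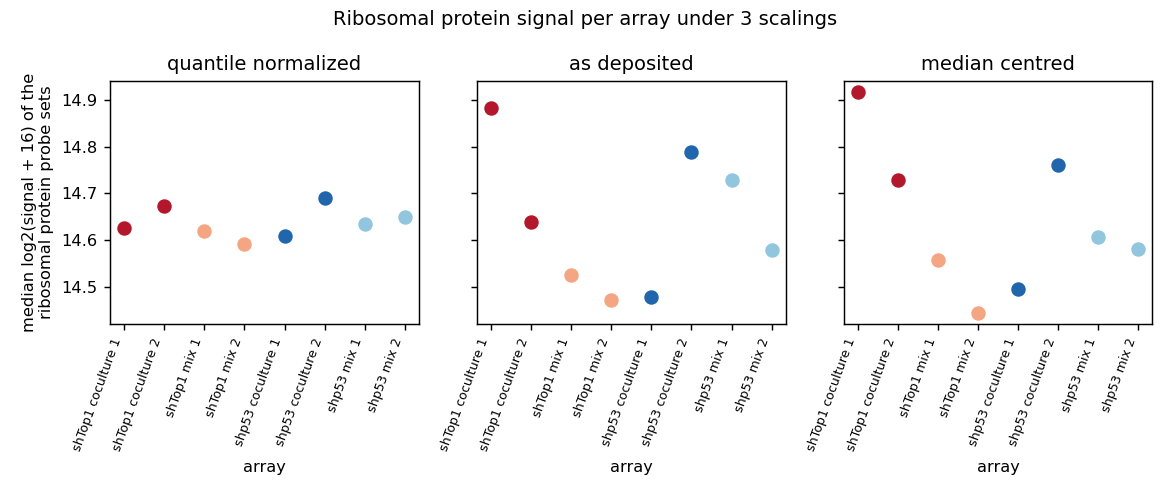
Each point is the median log2(signal + 16) of the ribosomal protein probe sets on 1 array, under quantile normalization, as deposited and after median centring. The first shTop1 coculture array is highest on the deposited scale (14.88) and after centring (14.92), while the 8 arrays lie between 14.59 and 14.69 after quantile normalization.

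Among small subunit genes, Rps27, which encodes a zinc-finger protein, had by far the largest difference. Its own probe set gave signals of 677 and 706 in the shTop1 cocultures against 157 and 165 in the shTop1 mixes, and 395 and 196 in the shp53 cocultures against 283 and 279 in the shp53 mixes. Both shTop1 cocultures were the highest and both shTop1 mixes the lowest of the 8 arrays, while the shp53 cocultures lay on either side of their mixes. The log2 coculture minus mix difference was 2.00 with Top1 knockdown (SE 0.29, 3.99-fold, unadjusted p = 0.0004, adjusted p = 0.435 in limma) and -0.01 with p53 knockdown (SE 0.29). The difference between these effects was 2.01 (SE 0.41, unadjusted p = 0.0025, adjusted p = 0.880 in limma). Between the knockdowns, shTop1 minus shp53 was 1.26 in the cocultures (SE 0.29, adjusted p = 0.745 in limma) and -0.75 in the mixes (SE 0.29, adjusted p of about 1.00), so the signals of the shTop1 mixes were also below those of the shp53 mixes. Without shp53 coculture replicate 2, the array with 196, the difference in the cocultures was 0.78.

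Averaged over both knockdowns the Rps27 difference was 0.99 (SE 0.20, adjusted p = 0.333 in limma). With trended and robust variances the adjusted p in limma was 0.0152 with Top1 knockdown and 0.0430 over both knockdowns, and 0.517 for the difference between the effects. Leaving out each array in turn kept the Top1 knockdown difference between 1.97 and 2.03, with a smallest adjusted p of 0.0665 in limma. Rps27 had already been named in earlier results of these data, so the values give no independent support. A second probe set, annotated to both Rps27 and Rps27rt, a near-identical copy, did not show the pattern. It gave 21625 and 22329 in the shTop1 cocultures against 20602 and 21847 in the shTop1 mixes, and 21918 and 22158 in the shp53 cocultures against 21229 and 21815 in the shp53 mixes. On that bright probe set the log2 difference with Top1 knockdown was 0.05, so the high signal was seen on the dim probe set alone, and which probe set follows the Rps27 message was not tested.

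Rps27l, a paralog of Rps27 known as a p53 target, did not follow it. Its brightest probe set had signals of 23352 and 23109 in the shTop1 cocultures against 22794 and 21011 in the shTop1 mixes, and 22624 and 23195 in the shp53 cocultures against 21775 and 22158 in the shp53 mixes. The log2 difference was 0.07 over both knockdowns (SE 0.07, adjusted p = 0.686 in limma), and its 3 probe sets ran from -0.07 to 0.07. Over both conditions, shTop1 minus shp53 was 0.0074 for Rps27l. Within each knockdown both cocultures were above both mixes, by less than their error in limma, while the 4 cocultures overlapped with the 4 mixes and the 4 shTop1 arrays with the 4 shp53 arrays. The difference over both knockdowns was 0.04 without shTop1 mix replicate 2.

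**Figure D3:**
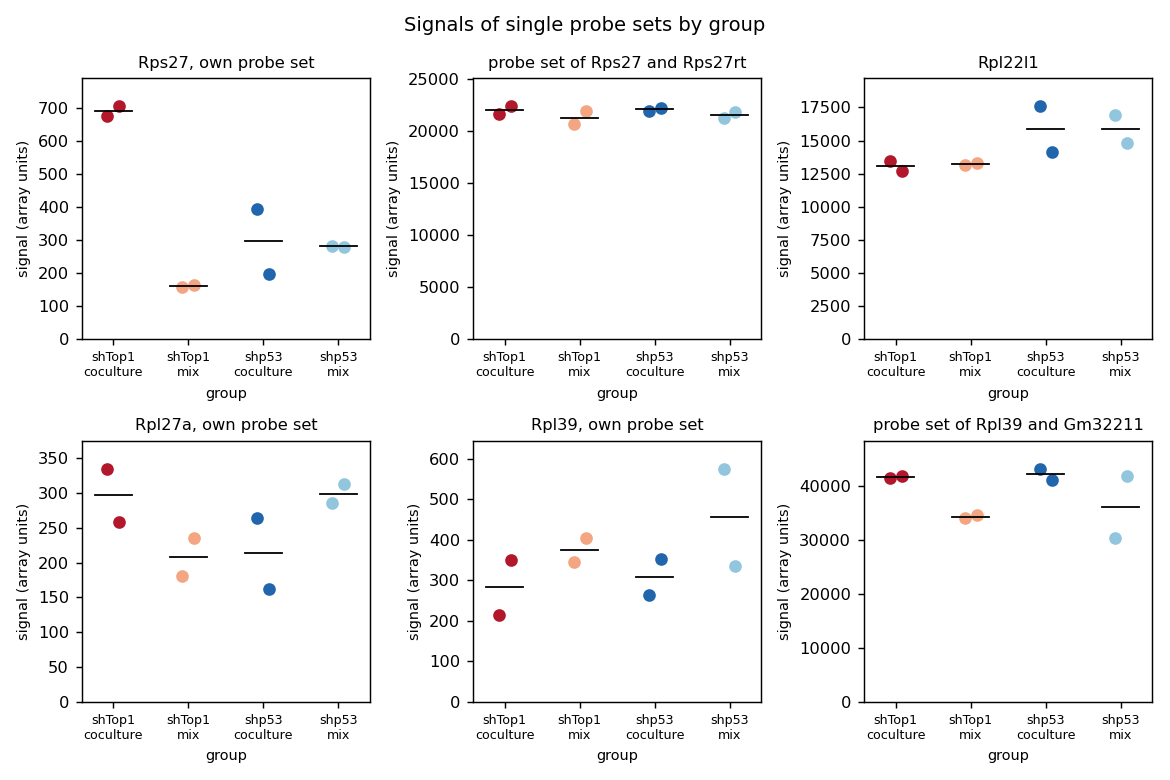
Signals of 6 probe sets (linear array units, axes from 0) are shown by group, with a point for each array and a line at the mean of the 2 arrays. The Rps27 probe set reads about 4 times higher in shTop1 cocultures than in shTop1 mixes, while the probe set shared with Rps27rt is flat, and Rpl22l1 is lower in all 4 shTop1 arrays than in the 4 shp53 arrays.

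Apart from Rps27, no small subunit gene had an unadjusted p under 0.05 on its brightest probe set. Rps19, which is mutated in Diamond-Blackfan anaemia in humans, had signals of 26076 and 29558 in the shTop1 cocultures, 25843 and 24546 in the shTop1 mixes, 26353 and 29035 in the shp53 cocultures and 26353 and 25766 in the shp53 mixes. The second coculture array of each knockdown was the highest, and the first did not stand apart from the mixes (log2 difference 0.11, SE 0.08, adjusted p = 0.598 in limma). Rps14, whose loss marks the 5q- syndrome in humans, differed by 0.08 (SE 0.07), and Rps24, another Diamond-Blackfan gene, by -0.08 (SE 0.07). Rpsa, also known as the laminin receptor, differed by 0.01 (SE 0.07). Rps4x (-0.08, SE 0.08), Rps25 (-0.11, SE 0.11), which some viral messages need for internal initiation, and Rps29 (-0.08, SE 0.07) complete the small subunit genes among the 10 with the smallest p. A brighter probe set that Rps25 shares with other symbols went the other way, at 0.11. Its cocultures, from 22578 to 24220, lay above its mixes, from 20293 to 22358. Rps29 read an identical 45376 on both shTop1 mixes, shp53 mix replicate 1 and shTop1 coculture replicate 1. Quantile normalization gives equal ranks equal values, which limits what the Rps29 difference and SE can show. Rps26, which contacts the message near the exit site, differed by 0.17 with Top1 knockdown (SE 0.11). Single arrays moved most of these small values without turning a sign: without 1 shTop1 coculture array Rps19 came to 0.07 (replicate 2) and Rps25 to -0.04 (replicate 2) or -0.19 (replicate 1), and without 1 shTop1 mix array Rps14 came to 0.05 (replicate 1) and Rps4x to -0.04 (replicate 2). Rps24 came to -0.05 without shp53 mix replicate 1, and Rps29 to -0.04 without shp53 coculture replicate 2. The signs of Rps24, Rps4x and Rps29 turned under median centring (0.12, 0.09 and 0.11).

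Rps6, the S6 kinase substrate, was lowest in shp53 mix replicate 1. Its own probe set gave 800 and 755 in the shTop1 cocultures against 865 and 862 in the shTop1 mixes, and 766 and 755 in the shp53 cocultures against 650 and 788 in the shp53 mixes. The shTop1 mixes were the highest 2 arrays, and shTop1 minus shp53 in the mixes was 0.27 (SE 0.12, unadjusted p = 0.0673, adjusted p of about 1.00 in limma). It was 0.13 without shp53 mix replicate 1 and 0.40 without shp53 mix replicate 2. One bright probe set annotated to Rps6 and a pseudogene gave 36648 and 40080 in the shTop1 cocultures, 35887 and 34440 in the shTop1 mixes, 34906 and 41362 in the shp53 cocultures and 38890 and 37432 in the shp53 mixes, so that its shTop1 mixes were not the highest. Its shTop1 minus shp53 difference in the mixes was -0.12. The other probe sets with this annotation ran from -0.22, on a dim one, to 0.18, so the shared probe sets gave no single direction. Averaged over the 2 own probe sets of Rps6, the difference in the mixes was -0.10. The second own probe set was dim, with a mean signal of 34.5 against 780 for the first, and counted equally in that average. The pair had a Pearson correlation of -0.817 over the 8 arrays.

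Among large subunit genes, Rpl39, a small protein at the peptide exit tunnel, had the lowest value over both knockdowns. Its own probe set gave 214 and 350 in the shTop1 cocultures against 346 and 404 in the shTop1 mixes, and 263 and 352 in the shp53 cocultures against 574 and 336 in the shp53 mixes. The groups overlapped, and the log2 difference was -0.47 (SE 0.23, unadjusted p = 0.0895, adjusted p = 0.482 in limma). It was -0.28 without shp53 mix replicate 1, the array with 574. A bright probe set annotated to Rpl39 and Gm32211 went the other way, at 41362 and 41863 in the shTop1 cocultures against 34036 and 34526 in the shTop1 mixes, and 43111 and 41134 in the shp53 cocultures against 30395 and 41863 in the shp53 mixes. Its log2 difference was 0.26, so the sign for Rpl39 depends on the probe set. Rpl39l, a paralog best known from testis, had -0.04 over both knockdowns (SE 0.08), and its shTop1 minus shp53 difference in the cocultures was 0.21 (SE 0.11, unadjusted p = 0.121), or 0.12 without shTop1 coculture replicate 1.

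Rpl27a, a large subunit protein, had opposite signs in the knockdowns. Its own probe set gave 335 and 259 in the shTop1 cocultures against 181 and 236 in the shTop1 mixes, and 265 and 162 in the shp53 cocultures against 285 and 313 in the shp53 mixes. Both shTop1 cocultures were above their mixes and both shp53 cocultures below theirs. The log2 differences were 0.48 with Top1 knockdown (SE 0.25) and -0.49 with p53 knockdown (SE 0.25), and the difference between them was 0.97 (SE 0.36, unadjusted p = 0.0352, adjusted p = 1 in limma). The p53 knockdown difference was -0.17 without shp53 coculture replicate 2. A bright probe set shared with 4 other symbols ran between 34858 and 37004 over the 8 arrays, without this pattern.

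Rpl22l1 was ordered by knockdown and not by culture condition. It is the paralog of Rpl22, and in mouse Rpl22 protein represses the Rpl22l1 message. Its only probe set gave 13416 and 12724 in the shTop1 cocultures against 17585 and 14140 in the shp53 cocultures, and 13121 and 13269 in the shTop1 mixes against 16953 and 14791 in the shp53 mixes. All 4 shTop1 arrays were below all 4 shp53 arrays, which held for no other ribosomal protein gene and for 1.07% of all genes. The reverse order held for 0 of the 47 and for 1.02% of all genes. The log2 difference over both conditions was -0.27 (0.831-fold, SD 0.03 in shTop1 and 0.15 in shp53, n = 4 each). This contrast was added after these values were seen, so no p is given for it. It ran from -0.35 to -0.19 when each array was left out in turn and was -0.16 after median centring. In limma shTop1 minus shp53 was -0.26 in the mixes (SE 0.14, unadjusted p = 0.108) and -0.27 in the cocultures (SE 0.14, unadjusted p = 0.0992), with adjusted p of about 1.00 in both. Without the first shp53 array of each condition these were -0.16 in the mixes and -0.11 in the cocultures. Rpl22 itself had shTop1 minus shp53 at 0.07 over both conditions, with overlapping arrays. Coculture minus mix was -0.01 for Rpl22l1 (SE 0.10).

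Of the large subunit and stalk genes, none but Rpl27a had an unadjusted p under 0.05 on its brightest probe set. Rpl11, the Mdm2-binding protein, differed by 0.07 over both knockdowns (SE 0.09) and by 0.12 with p53 knockdown (SE 0.12, unadjusted p = 0.350), which was 0.05 without shp53 mix replicate 1 and 0.20 without shp53 mix replicate 2. Rpl12, at the base of the stalk, differed by -0.11 (SE 0.10), which was -0.04 without shTop1 coculture replicate 1 and -0.17 without shTop1 coculture replicate 2. That own probe set had a mean signal of 3525, and brighter probe sets that Rpl12 shares with other symbols were at 0.06 and 0.01. Rpl37 differed by -0.30 with Top1 knockdown (SE 0.21) on a probe set with a mean signal of 2366. Of the probe sets shared with Rpl37rt, the bright ones were at -0.23 and 0.04 in that comparison and a dim one at 0.105. The stalk proteins Rplp0 and Rplp2, which recruit translation factors, differed by -0.03 (SE 0.07) and 0.02 (SE 0.07). Rpl3l, the striated muscle paralog of Rpl3, was dim, with a mean signal of 39.6, and ranged 3.68-fold over the 8 arrays. Among the 47 genes the ratio of the highest to the lowest array had a smallest value of 1.06 and a largest of 4.49 (Rps27).

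Probe sets were also tested one by one. Of 98 probe sets past the filter, 2 were higher and 6 lower in the cocultures at an unadjusted p under 0.05 in limma, where 10.8% of 26118 probe sets had such a p. None passed after adjustment (smallest adjusted p = 0.398 in limma). Over the 98 together the share was below that of all probe sets. However, all 8 were among the 36 with a mean signal under 20000, where the share was above 10.8%. The share of all probe sets under 20000 was not counted. The 62 bright probe sets had 0 and lay between -0.17 and 0.14. Besides Rps27, the higher one was a probe set of Rpl22 (0.34). The lower ones belonged to Rps18 (-0.80), Rps10 (-0.54), Rps9 (-0.41), Rps20 (-0.38) and Rpl41 (-0.41 and -0.35).

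**Figure D4:**
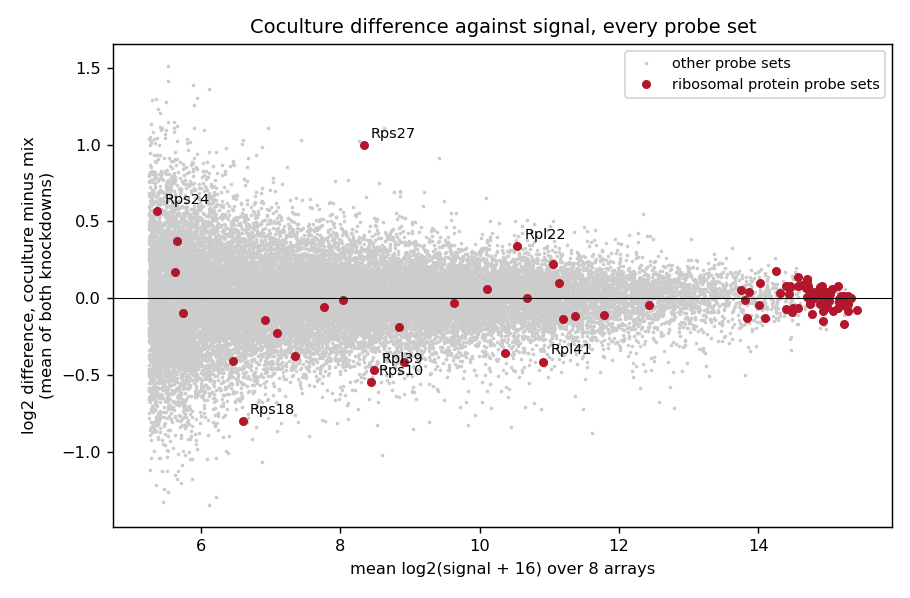
Each point is a probe set, with its mean log2(signal + 16) over the 8 arrays on the x axis and its log2 coculture minus mix difference, averaged over both knockdowns, on the y axis. Ribosomal protein probe sets (red) crowd at the bright end between -0.17 and 0.14, and the few far from 0, such as Rps27 (0.99) and Rps18 (-0.80), are dim.

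All 4 cocultures lay below all 4 mixes on 3 of the 98 probe sets, against 3.46% of all probe sets, and above them on 3 others, against 4.61%. Of the 36 with a mean signal under 20000, 3 were lower and 2 higher, and of the 62 bright ones 0 were lower and 1 higher. Rps10, a small subunit protein at the head of the subunit, had signals of 222 and 276 in the shTop1 cocultures against 476 and 388 in the shTop1 mixes, and 283 and 320 in the shp53 cocultures against 387 and 379 in the shp53 mixes. Its highest coculture was below its lowest mix, with a log2 difference of -0.54 (SE 0.11, unadjusted p = 0.0028, adjusted p = 0.398 in limma). That probe set was dim, with a mean signal of 341. Another of the 6 Rps10 probe sets was at 0.14, and the brightest, with a mean signal of 37070, was at -0.02. Rps20, also of the small subunit, had 138 and 113 in the shTop1 cocultures against 163 and 183 in the shTop1 mixes, and 124 and 133 in the shp53 cocultures against 181 and 152 in the shp53 mixes (log2 difference -0.38, SE 0.10). The Rps20 probe set at -0.38 was dim, with a mean signal of 148. All 4 probe sets of the gene were below 0, but the brightest was the nearest to 0, at -0.05 (SE 0.08).

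Rpl41, the smallest ribosomal protein, had 1383 and 1678 in the shTop1 cocultures against 2208 and 2071 in the shTop1 mixes, and 1575 and 2066 in the shp53 cocultures against 2388 and 2182 in the shp53 mixes. The second shp53 coculture came within a few units of the lowest mix, and the log2 difference was -0.41 (SE 0.12). Another of its 4 probe sets was at 0.10. Rpl22, an RNA-binding large subunit protein, was higher in all cocultures on 2 of its 3 probe sets. On the dimmer one it had 1644 and 1715 in the shTop1 cocultures against 1369 and 1300 in the shTop1 mixes, and 1870 and 1443 in the shp53 cocultures against 1311 and 1258 in the shp53 mixes (log2 difference 0.34, SE 0.10, adjusted p = 0.406 in limma). The brightest Rpl22 probe set was at -0.02. The last of the 6 was a probe set of Rps3, a small subunit protein at the message entry, at 0.22 (SE 0.09).

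**Figure D5:**
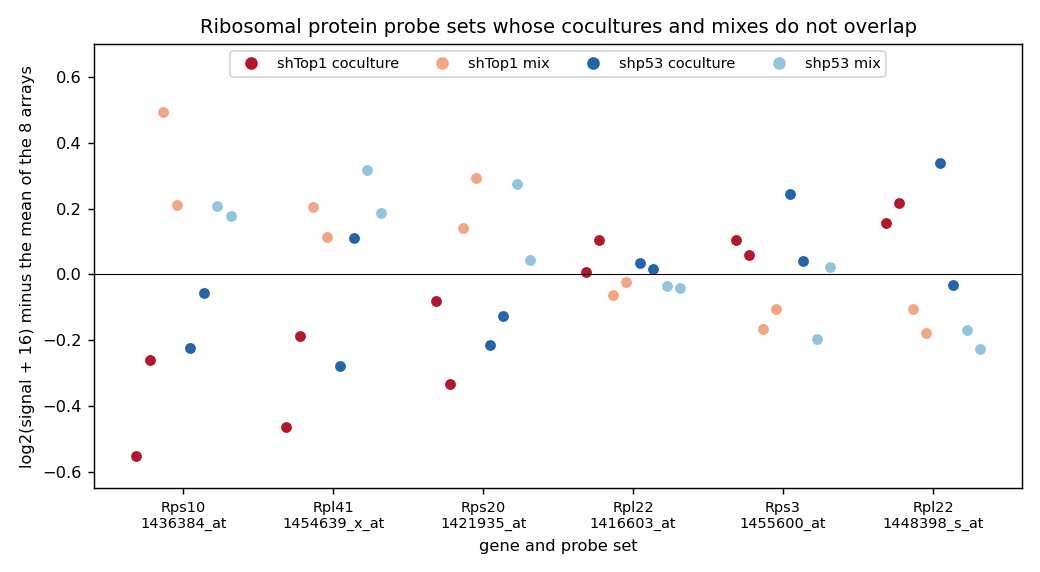
For the 6 ribosomal protein probe sets on which the 4 cocultures and the 4 mixes do not overlap, each point is 1 array, as log2(signal + 16) minus the mean of the 8 arrays. Rps10, Rpl41 and Rps20 are lower in the cocultures, by -0.54, -0.41 and -0.38, and the probe sets of Rpl22 (2) and Rps3 are higher.

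Probe sets of 1 gene often differed in sign. Of 21 genes with at least 2 probe sets past the filter, 7 had differences of 1 sign and 14 of both signs. The share over all genes was not counted. Some of the 14 straddled 0 by little, such as Rps27l (-0.07 to 0.07) and Rps29 (-0.08 to 0.03), so the count alone does not show disagreement. The 6 probe sets of Rps18, a small subunit protein, ran from -0.80 to 0.13. The dim one at -0.80 had 55.0 and 98.0 in the shTop1 cocultures against 117 and 85.7 in the shTop1 mixes, and 36.2 and 53.0 in the shp53 cocultures against 108 and 143 in the shp53 mixes. Its arrays overlapped with Top1 knockdown and not with p53 knockdown. The 6 probe sets of Rps24 ran from -0.09 to 0.57. Over the 8 arrays, pairs of Rpl13a probe sets had Pearson correlations between -0.911 and 0.897, and the pair of Rps7 probe sets had 0.972; both are descriptions over arrays that share their samples.

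The bright probe sets varied along a shared axis. The first principal component of the 62 held 62.5% of their variance and placed shTop1 coculture replicate 2 (0.684) and shp53 coculture replicate 2 (0.542) at one end and shTop1 mix replicate 2 (-0.552) at the other. The remaining arrays lay between: shTop1 coculture replicate 1 at -0.12, shTop1 mix replicate 1 at -0.291, shp53 coculture replicate 1 at -0.129 and the shp53 mixes at -0.259 and 0.124. The axis was turned so that the cocultures averaged higher than the mixes, so its direction is not a result. Only the second array of each coculture stood at the high end. Probe sets whose identifier ends in x_at, which the maker marks as able to cross-hybridise, made up 39.2% of the 102 and 5.83% of all probe sets with 1 symbol. Among the bright ones, 10 of 31 x_at probe sets and 21 of 31 others had a loading above 0 on this axis. On the same arrays, and so not independent of the axis, the coculture minus mix median was -0.04 for the x_at probe sets (11 higher, 20 lower). It was 0.02 for the others (22 higher, 9 lower).

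Genes next to the cytoplasmic ribosome in the pathway were counted from lists also chosen with earlier results known, and 0 of their genes passed adjustment in limma over both knockdowns. The 2 genes named from each list had its smallest p, so they do not stand for the list. Mitochondrial ribosomal proteins, which build the separate ribosome of that organelle, had 41 of 76 above 0 and a median of 0.01, with Mrpl28 at 0.20 and Mrpl20 at -0.18. Translation factors and other TOP messages had 16 of 25 above 0 and a median of 0.02, with Eif4e, the cap-binding factor, at 0.16 and Eef2, the elongation factor of translocation, at 0.15. Regulators of these messages and Mdm2 had 6 of 12 above 0 and a median of 0.001, with Mdm2 at 0.19 and Mtor at 0.14. Chaperones, importers and assembly factors of ribosomal proteins had 11 of 17 below 0 and a median of -0.07. Tsr1 was at -0.15 (unadjusted p = 0.067 in limma) and Bysl at -0.21 (unadjusted p = 0.075 in limma), both factors of small subunit assembly. For all genes the median was 0.0224.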

How the data were processed

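The authors deposited linear intensities, with 1 value per probe set and array; no source used here names the tool behind them. When the top and bottom 2% of an array's values were set aside, the rest averaged about 500.003 on every array, which shows a common scaling before deposit. Values under 16 made up 21.1% to 25.6% of an array. Precision is limited by the number of arrays.

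Quantile normalization was applied to the intensities, followed by log2(value + 16). Genes were named from the platform annotation only where a probe set had 1 symbol, each gene was represented by its brightest probe set, and genes were kept from the 30th percentile of probe set means upward. Group means were fitted over the 8 arrays in limma 3.58.1 under R 4.3.3, using lmFit and eBayes with no variance trend, which left 4 residual degrees of freedom. P-values are two-sided with Benjamini-Hochberg adjustment over all 14267 genes and a threshold of 0.05. The steps were tested on simulated data.

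The members and lists were chosen with earlier results of these data known. Named were the 10 ribosomal protein genes with the smallest p over both knockdowns, the 5 in each other comparison, genes fixed by role, and the 2 with the smallest p of each other list. Of the genes fixed by role, those without a probe set of a single symbol are not reported here. Probe sets named one by one were chosen after their values were seen. Deviations of same-numbered arrays correlated between -0.007 and 0.051 over all genes, so replicate numbers were not taken to pair the arrays. Over the 47 ribosomal protein genes they correlated between -0.555 and 0.122, and over the 62 bright probe sets between -0.461 and 0.695, with both signs in each. Alternatives were a replicate block, 2 scalings, 2 filters, 3 summaries of probe sets, the variance model, only the groups compared, pseudocounts of 1 and 64, and leaving out each array. Reading shared probe sets beside the members, the contrast over both conditions for Rpl22l1 and the scalings without shTop1 coculture replicate 1 were added after the data were seen.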

Additional observations from a re-analysis of the deposited data

Results flagged for a closer look

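For 2 ribosomal protein genes the coculture effect differed between the knockdowns by the interaction term in limma at an unadjusted p under 0.05, and neither passed adjustment over all genes. For Rps27 the difference of the coculture effects, shTop1 minus shp53, was 2.01 on the log2 scale (unadjusted p = 0.0025, adjusted p = 0.880 in limma), and leaving out each array in turn moved it between 1.53 and 2.48. For Rpl27a it was 0.97 (unadjusted p = 0.0352, adjusted p = 1 in limma), between 0.64 and 1.30 with each array left out. Both values come from dim probe sets whose bright counterparts, shared with other symbols, did not show the difference.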

How the results depend on the processing

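Of 65 results under the alternatives, 1185 values stayed on the same side of the threshold with the same direction or within the spread, 39 moved, 19 reversed and 2 became called. The median of the 47 genes moved under median centring to 0.16 (both knockdowns), 0.30 (Top1), 0.031 (p53), 0.28 (difference of the effects), -0.08 (mixes) and 0.20 (cocultures). With the authors' scaling alone it was 0.11, 0.24, -0.024, 0.27, -0.14 and 0.14 in the same order. The medians of all genes in that order were 0.068, 0.076, 0.059, 0.0095, 0.045 and 0.060 after median centring. With the authors' scaling they were 0.011, 0.017, 0.0044, 0.0052, -0.018 and -0.0075. Leaving out each array gave medians of the 47 genes of -0.0076 to 0.0135 (both), -0.0061 to 0.0258 (Top1), -0.0228 to 0.0203 (p53), -0.0187 to 0.0075 (difference), -0.0025 to 0.0072 (mixes) and -0.0152 to 0.0135 (cocultures), and 0 calls. Trended and robust variances called 31 genes (both), 3 (Top1) and 1 (p53), with 1 ribosomal protein gene, Rps27, in each of the first pair. Signs reversed under median centring for Rps24 (0.12), Rps4x (0.092) and Rps29 (0.11) over both knockdowns, and for Rps4x with Top1 knockdown (0.17), in the difference (0.15) and in the cocultures (0.066). With the authors' scaling alone they reversed for Rps24 (0.061), Rps4x (0.035), Rps29 (0.052), Rps4x with Top1 knockdown (0.11) and in the difference (0.14). With all probe sets of a gene averaged they reversed for Rps24 (0.067, and 0.23 with p53 knockdown), Rps27l (-0.013), Rps6 in the difference (0.15) and the mixes (-0.10), and Rps4x in the difference (0.031). Without x_at probe sets Rps24 reversed to 0.10, and to 0.27 with p53 knockdown. The scalings and summaries differ by construction, and no further cause was tested. Same-numbered arrays of the 62 bright probe sets deviated together between shTop1 cocultures and shp53 mixes (r = 0.695) and between the cocultures (0.529), and apart between shTop1 cocultures and shTop1 mixes (-0.461), so the numbers gave no single pairing. The replicate block left 0 calls in every comparison and the median over both knockdowns at -0.0022.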
